A study of Mus musculus with 12 samples.

Results

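A set of 10 genes of the circadian clock and of the PAR bZIP family was followed in mouse liver: Dbp, Tef, Hlf, Nr1d1, Nr1d2, Arntl, Npas2, Per1, Per2 and Per3. They were taken by gene symbol from a table of 21705 genes, and all 10 of 10 members were found there and passed the filter on low values, a mean of at least 10 over the 12 livers. Dbp was selected on its values in these livers, which were lower with LNA29, so its difference is described here without a test, and the other 9 members are its relatives and partners. The livers came from female C57BL/6J mice, aged 10 to 12 weeks and kept on a cycle with 12 hours of light, that received either saline (n = 6) or LNA29 (n = 6) through the tail vein. LNA29 is a pair of locked nucleic acid oligonucleotides that bind and block microRNAs of the miR-29 family, given as 20 mg/kg of LNA29a together with 20 mg/kg of LNA29bc. All 12 mice were killed 7 days later after a fast of 18 hours, and whole liver was sequenced with 1 library per mouse. The saline mice received no oligonucleotide, so LNA29 cannot be told apart here from an oligonucleotide of another sequence. The clock time at which each liver was collected is not given in the sources used here, and its part in the differences below was not tested.

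The circadian clock of liver cells is a transcriptional loop. Arntl (also called Bmal1) pairs with Clock or with its paralogue Npas2 and switches on genes that carry an E-box, among them the period genes Per1, Per2 and Per3, the REV-ERB receptors Nr1d1 and Nr1d2, and the PAR bZIP factor Dbp. The period proteins return with the cryptochromes to restrain Arntl and its partners, while the REV-ERB receptors repress Arntl and Npas2 by competing with ROR receptors for shared DNA sites. Dbp, Tef and Hlf bind D-boxes and drive rhythmic liver genes, including those of detoxification. Since the messenger RNAs of this loop peak at different hours, their levels depend on when a liver is taken.

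The mature miR-29 sequences are shown because LNA29 is directed at them. The seed, bases 2 to 8, is in capitals, and the RefSeq entries were read on GRCm38.p6. The gene of mmu-miR-29a-3p lies on the minus strand, with the mature sequence at chr6:31062673-31062694. The same holds for one of the pair of genes of mmu-miR-29b-3p, at chr6:31063025-31063047, while the other is on the plus strand at chr1:195037091-195037113, next to mmu-miR-29c-3p at chr1:195037600-195037621.
mmu-miR-29a-3p: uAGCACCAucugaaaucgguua
mmu-miR-29b-3p: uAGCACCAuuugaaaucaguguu
mmu-miR-29c-3p: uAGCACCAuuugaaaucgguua
All of these carry the seed AGCACCA, which pairs with TGGTGCT in a 3′ UTR. Mature miRNAs are not measured by the polyadenylated RNA libraries, so the block of miR-29 itself could not be checked in these values. In a single 3′ UTR per gene, the longest one in GENCODE M21 (GRCm38), TGGTGCT was present in 3 of 10 members (30%), against 1733 of 11097 tested genes with an annotated 3′ UTR (15.6%). Tef and Hlf held 1 match each and Per3 held 3, printed here with the match in capitals and, for Per3, its first base counted from the start of a 3′ UTR of 2224 bases.
Tef: tgctgtgaTGGTGCTgtggtctg
Hlf: agagggacTGGTGCTttgggtca
Per3, 3′ UTR base 522: gtacagcaTGGTGCTtctcttcc
Per3, 3′ UTR base 1053: tcactgtcTGGTGCTctggttta
Per3, 3′ UTR base 1770: tttgaaaaTGGTGCTgtagtcag
A match describes the letters only. The values of Tef, Hlf and Per3 follow with their groups.

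The deposited value of a gene is its number of estimated reads scaled so that the upper quartile of each library is 1000, and a gene without reads is listed at 1. A single read was worth between 9.80 and 24.4 of these units, and estimated depth ran from 8217212 to 19062437 reads in saline livers and from 7696081 to 15079236 in LNA29 livers. Alb took 43.6% to 46.9% of the reads in 11 livers but 35.7% in saline 49 (livers are named by group and label number). Across 12486 tested genes, 20 had a limma adjusted p under 0.05 (0.16% of genes), and the median log2 fold change was −0.09. In each list of 6 markers of stellate, endothelial, Kupffer, bile duct or blood cells, no more than 1 passed an unadjusted limma p of 0.05. Of all tested genes, 5.97% were lower and 1.95% higher at that p. The summed levels of each list overlapped between the groups. Such a sum is weighted to the most abundant markers, as to Hba-a2 in the blood list (saline mean 80033, against 63.31 for Cd3e). In stellate markers the sums ran from 1438 to 2368 in saline and from 952.2 to 1907 in LNA29 livers. Of these markers 5 had a negative and 1 a positive log2 fold change, and Hgf passed as lower. Hgf had only 0 to 3 reads in saline and 0 to 1 in LNA29 livers. In Kupffer markers the sums ran from 7188 to 10569 and from 6018 to 14877. Marco passed as higher there, while the other 5 had a negative log2 fold change. Endothelial markers were also 5 negative and 1 positive, blood markers 4 and 2, bile duct markers 2 and 4, and hepatocyte markers 1 and 4. Of all tested genes, 7671 were negative and 4815 positive. Hepatocyte markers were present in every liver. In bulk tissue, fewer cells of a type and less RNA per cell cannot be told apart.

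Of the 9 members other than Dbp, none reached a limma adjusted p under 0.05. At an unadjusted limma p under 0.05, 2 of 9 were lower in LNA29 livers (Tef and Nr1d1), where 5.97% of all tested genes were, and 1 of 9 was higher (Npas2), where 1.95% of all tested genes were. Since these members were chosen with earlier values in view, the counts are a description. Irrespective of the test, 6 of the 9 had a negative and 3 a positive log2 fold change, with a median of −0.35, whereas 7671 of the tested genes were negative and 4815 positive. Among these 3, the wider differences were in the REV-ERB receptor Nr1d1, which was lower, and in the Arntl partner Npas2, which was higher. All fold changes below are on the scale of log2(value + 1), which understates the change of low genes read in every liver and can overstate that of genes with livers without reads, since these are set to 1.

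**Figure D1:**
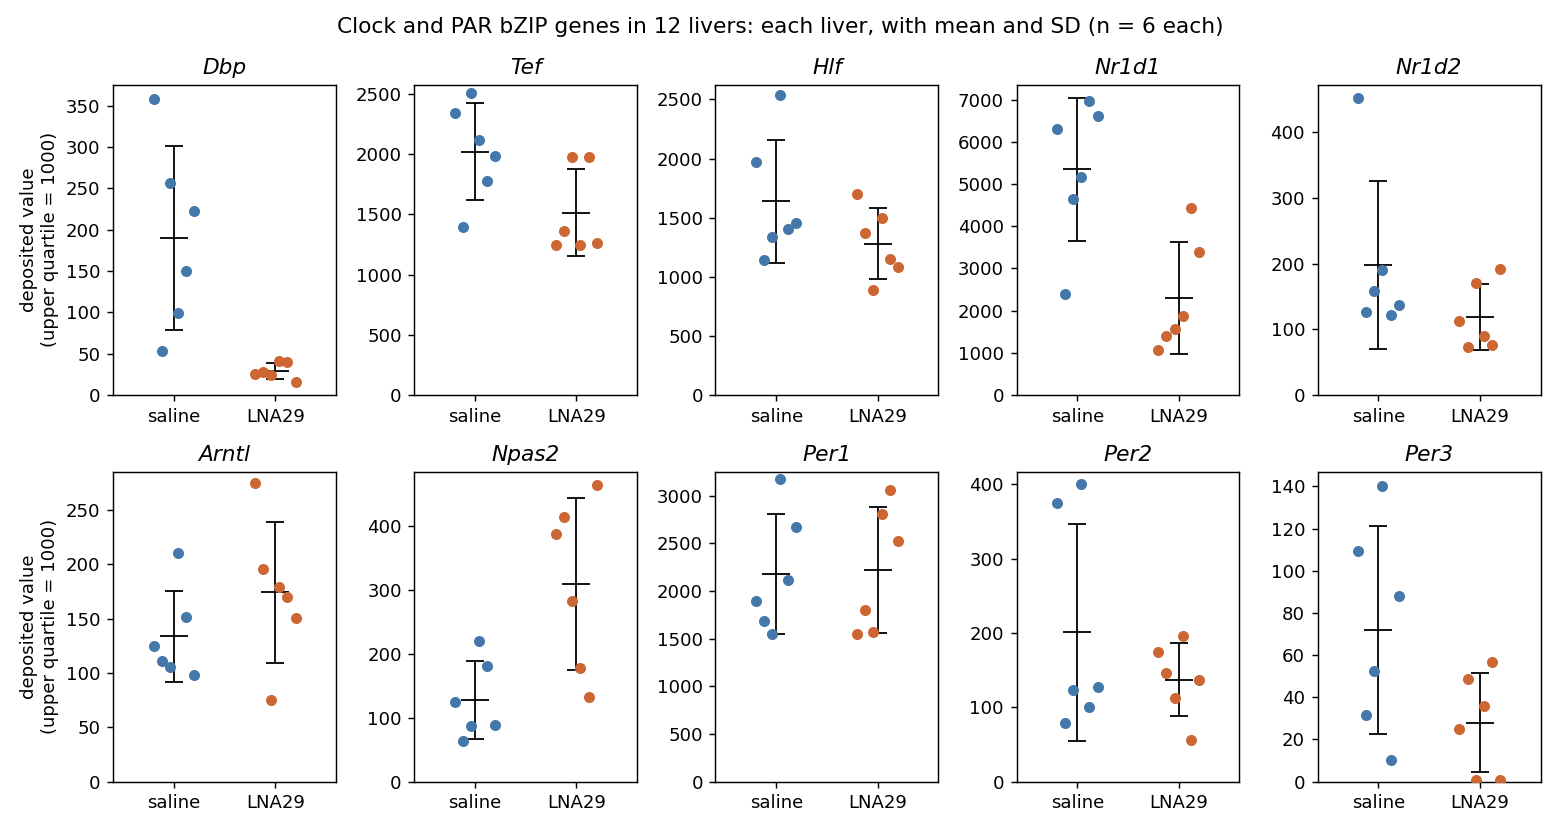
Deposited values (vertical axes, upper quartile of each library = 1000) of the 10 members in 6 saline (blue) and 6 LNA29 (orange) livers; each point is 1 liver, the long tick is the mean and the bar the SD. All 6 LNA29 livers lie below all 6 saline livers for Dbp, between 15.34 and 41.07 against 52.54 to 357.8, while every other member overlaps between the groups.

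Dbp (Entrez 13170; GRCm38 chr7:45705088-45710203, plus strand), a PAR bZIP activator and a direct output of the clock, had values of 357.8, 52.54, 256.7, 99.0, 150.1 and 222.2 in saline livers 43, 45, 47, 49, 51 and 53. In LNA29 livers 44, 46, 48, 50, 52 and 54 it had 25.88, 28.29, 23.77, 41.07, 40.19 and 15.34. The groups did not overlap, which was so in the downward direction for 89 of all tested genes (0.713%), but this separation is also what put Dbp on the list. The means were 189.7 ± 111.7 (SD, n = 6) and 29.09 ± 9.95 (SD, n = 6), a ratio of 0.153 and a log2 fold change of −2.48 ± 0.48 (SE).

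These Dbp values rest on few reads. The 6 saline livers held 3.31 to 22.90 estimated reads each and the 6 LNA29 livers 1.12 to 2.30. The estimated reads totalled 88.26 in saline and 10.04 in LNA29 livers, and after rounding each liver to whole reads 89 and 9. With depth taken into account the rounded reads gave a ratio of saline over LNA29 of 7.26, which the rounding raised. Its exact 95% interval of 3.66 to 16.4 covers counting error only. This interval takes the rounded reads as counts, leaves out the error of the rounding, and is no test, as Dbp was selected on these values. The estimates were not whole numbers in any of the 12 livers (within 0.02 of a read), in contrast to the 8 members besides Dbp and Nr1d1, which were whole in all 12. Dbp shares 539 of its 2993 annotated exon bases (18%) with Sphk2, a sphingosine kinase gene on the opposite strand. In 7 of 12 livers the reads of Dbp and Sphk2 summed to a whole number although neither did alone, for example 22.90 and 323.10 in saline 43 and 1.16 and 175.84 in LNA29 46. The fractions of the 2 genes complemented each other there, as when a read is divided between them. Since the strand of the reads is not stated, the reads of either cannot be told apart in the shared bases. Sphk2 had 4546 to 6598 in saline and 3316 to 4527 in LNA29 livers, with no overlap, as in 0.713% of all tested genes in this direction. Its log2 fold change was −0.43 ± 0.13 (limma adjusted p = 0.274). The exact permutation p of 0.00216 was the smallest that 924 splits of 6 against 6 livers allow. After all livers were set to the same median the difference was −0.38 (exact permutation p = 0.0195), and with TMM scaling −0.37 (exact permutation p = 0.013). The part of Sphk2 reads in the LNA29 values of Dbp was not tested.

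The RefSeq promoter of Dbp is given because Dbp is a known E-box target of Arntl. It spans 250 bases before to 50 after an annotated start, chr7:45704997-45705296 on the plus strand of GRCm38.p6. None of the motifs searched, on both strands, was found in it: the E-box CACGTG, its variant CACGTT, the D-box forms TTATGTAA and TTACGTAA, the ROR and REV-ERB site AGGTCA and the cAMP response element TGACGTCA. This says nothing of sites outside the window.
Dbp: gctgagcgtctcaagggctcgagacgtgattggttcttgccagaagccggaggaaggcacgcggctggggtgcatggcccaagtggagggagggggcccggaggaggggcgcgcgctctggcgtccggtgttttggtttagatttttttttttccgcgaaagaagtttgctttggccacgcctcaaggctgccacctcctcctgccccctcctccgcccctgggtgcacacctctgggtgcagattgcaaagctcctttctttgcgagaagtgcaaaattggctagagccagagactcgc

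Tef, a PAR bZIP factor expressed in most tissues, ranged from 1397 through a median of 2055 to 2509 in saline livers and from 1250 through 1313 to 1981 in LNA29 livers, on 56 to 212 reads a liver. All 6 LNA29 livers were below the saline median, but the ranges overlapped. The means were 2023 ± 400.4 and 1515 ± 363.9 (SD, n = 6 each). The log2 fold change was −0.42 ± 0.18 (limma p = 0.0299, adjusted p = 0.552; two-sided exact permutation p = 0.0411). It did not keep an unadjusted limma p under 0.05 after all livers were set to the same median (−0.38, exact permutation p = 0.123) or scaled by TMM (−0.36, exact permutation p = 0.119), nor without any one of saline 43 or 47 or LNA29 44, 46, 50 or 54, where it lay between −0.40 and −0.36. Hlf, the remaining PAR bZIP factor, ranged from 1143 through 1428 to 2540 in saline and from 886.8 through 1258 to 1700 in LNA29 livers. Its ranges overlapped widely and its log2 fold change was −0.34 ± 0.21 (exact permutation p = 0.167). Without saline 49, the liver with the highest Hlf value, this was −0.20. Both Tef and Hlf carry a single TGGTGCT in the 3′ UTR, as printed above, and whether it bears on their values was not tested.

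The REV-ERB receptors were both lower on average. Nr1d1 (Entrez 217166; chr11:98767932-98775333, minus strand), also known as REV-ERB alpha, had values of 6297, 2399, 4652, 5165, 6965 and 6612 in saline livers 43 to 53. In LNA29 livers 44 to 54 it had 1056, 1401, 1568, 1875, 4436 and 3377. In the LNA29 group, livers 44, 46, 48 and 50 were below every saline liver, and the groups overlapped through saline 45 on one side and LNA29 52 and 54 on the other. The means were 5348 ± 1693 and 2285 ± 1326 (SD, n = 6 each). On the log2 scale the difference was −1.33 ± 0.32 (limma p = 0.000622, adjusted p = 0.139; exact permutation p = 0.0108). Leaving out each liver in turn gave −1.56 (without LNA29 52) to −1.15, with exact permutation p values of 0.00649 to 0.0216, and the value without saline 49 was −1.33. Nr1d1 was read deeply, with 151.12 to 689.54 reads in saline and 57.45 to 246.52 in LNA29 livers.

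Nr1d1 also overlaps a gene on the opposite strand, the thyroid hormone receptor gene Thra, over 263 of 3077 exon bases (8.55%). The estimated reads of Nr1d1 and Thra summed to whole numbers in 12 of 12 livers, while each was whole in 2 of 12. Thra itself had 436.1 to 839.4 in saline and 393.8 to 720.7 in LNA29 livers, at a log2 fold change of −0.05 ± 0.22 (exact permutation p = 0.807), with a sign that turned to 0.01 under TMM scaling. Its highest value lay below the lowest of Nr1d1, and the part of Thra reads in the values of Nr1d1 was not tested. The other receptor, Nr1d2 (REV-ERB beta), ranged from 121.2 through 147.6 to 453.1 in saline and from 73.17 through 100.9 to 191.8 in LNA29 livers, on 3 to 29 reads. The groups overlapped, at a log2 fold change of −0.66 ± 0.38 (exact permutation p = 0.0974). Saline 43 was far above the other saline livers, and without it the difference was −0.39 (exact permutation p = 0.197). Without LNA29 54 it was −0.82 (exact permutation p = 0.039, limma p = 0.0513).

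The promoter of Nr1d1, at chr11:98775328-98775627 on the minus strand, held no E-box CACGTG but 1 copy of the variant CACGTT, read as AACGTG on this strand and in capitals, with its first base at position −28 from the start. The variant occurred in 4.68% of 32851 RefSeq promoters of 300 bases.
Nr1d1: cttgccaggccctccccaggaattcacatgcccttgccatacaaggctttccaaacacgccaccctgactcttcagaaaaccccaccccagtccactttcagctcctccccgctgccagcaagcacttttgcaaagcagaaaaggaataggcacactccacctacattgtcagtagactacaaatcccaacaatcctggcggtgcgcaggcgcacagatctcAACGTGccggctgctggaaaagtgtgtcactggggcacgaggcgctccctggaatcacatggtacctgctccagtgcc

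Of the activators of the loop, Npas2 was higher at an unadjusted p under 0.05, Arntl did not pass, and Clock is given with the other core clock genes. Npas2 (Entrez 18143; chr1:39193731-39363236, plus strand), the paralogue of Clock that pairs with Arntl, had values of 125.0, 63.49, 87.72, 220.0, 181.8 and 88.24 in saline livers 43 to 53. In LNA29 livers 44 to 54 it had 387.5, 414.6, 283.0, 178.6, 132.1 and 465.8. All 6 LNA29 livers were above the saline median, livers 44, 46, 48 and 54 were above every saline liver, and 50 and 52 lay within the saline range. The means were 127.7 ± 61.21 and 310.3 ± 134.8 (SD, n = 6 each). On the log2 scale the difference was 1.27 ± 0.38 (limma p = 0.00377, adjusted p = 0.265; exact permutation p = 0.0173). Reads were few, 4 to 22 in saline and 7 to 34 in LNA29 livers, and all were whole numbers. Leaving out each liver in turn gave 1.10 to 1.49, with exact permutation p values of 0.0108 to 0.0325. The promoter of Npas2, at chr1:39194022-39194321 on the plus strand, held none of the motifs searched, AGGTCA included.
Npas2: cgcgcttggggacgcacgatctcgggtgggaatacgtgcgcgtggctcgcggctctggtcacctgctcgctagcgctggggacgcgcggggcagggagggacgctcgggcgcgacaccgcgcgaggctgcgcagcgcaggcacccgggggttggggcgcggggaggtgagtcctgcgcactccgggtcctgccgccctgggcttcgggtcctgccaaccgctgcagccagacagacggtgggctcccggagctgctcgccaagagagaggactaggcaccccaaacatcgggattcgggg

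Arntl (Bmal1), the partner of Npas2, ranged from 98.04 through a median of 118.1 to 210.0 in saline and from 75.47 through 174.2 to 275.0 in LNA29 livers, on 4 to 22 reads. The groups overlapped over the whole saline range, at a log2 fold change of 0.34 ± 0.33 (exact permutation p = 0.288). LNA29 44 had the highest and LNA29 48 the lowest Arntl value of all livers. Without the former the difference was 0.18 (exact permutation p = 0.535) and without the latter 0.56 (exact permutation p = 0.0433). The AGGTCA site, present in 16.3% of promoters, was found in a promoter of Arntl, and also in one of Nr1d2 and one of Per1.

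The opposite differences of Npas2 and Nr1d1 were set side by side within each liver, where the scaling cancels. The log2 ratio of Npas2 to Nr1d1 was −5.65, −5.24, −5.73, −4.55, −5.26 and −6.23 in saline livers 43 to 53, and −1.45, −1.76, −2.47, −3.39, −5.07 and −2.86 in LNA29 livers 44 to 54. The LNA29 ratios were above every saline ratio except that of LNA29 52, which lay among them. Since Npas2 and Nr1d1 were taken for their opposite differences, this separation restates them and adds no evidence of a linked change. LNA29 52 combined the highest Nr1d1 (4436) with the lowest Npas2 (132.1) of its group. The log2 ratio of Arntl to Nr1d1 ran from −6.08 through a median of −5.50 to −4.43 in saline and from −4.71 through −3.89 to −1.94 in LNA29 livers, which overlapped.

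**Figure D2:**
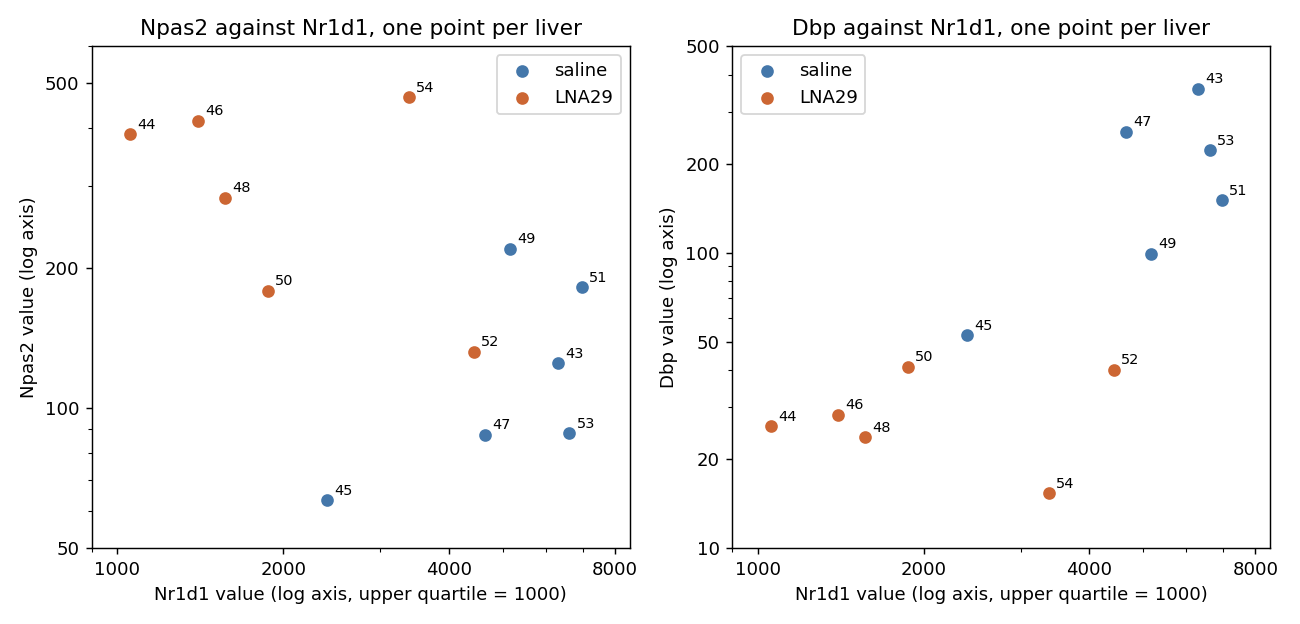
Npas2 (left) and Dbp (right) against Nr1d1 on logarithmic axes of the deposited value, 1 point per liver with its label number, 6 saline (blue) and 6 LNA29 (orange) livers. LNA29 52 (Nr1d1 4436, Npas2 132.1) lies near the saline livers on the left, while on the right its Dbp value of 40.19 lies with the other LNA29 livers.

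The period genes showed no common direction that passed a test. Per1, an E-box and cAMP-responsive gene, ranged from 1544 through 2001 to 3170 in saline and from 1550 through 2163 to 3057 in LNA29 livers. The ranges nearly coincided, at a log2 fold change of 0.02 ± 0.21 (exact permutation p = 0.946), with a sign that depended on the liver left out (−0.09 to 0.14). Per2 ranged from 79.37 through 125.1 to 400.0 in saline and from 56.60 through 141.7 to 196.4 in LNA29 livers. Saline 43 and 49, at 375.0 and 400.0, were above all 10 remaining livers, and the log2 fold change of −0.35 ± 0.44 (exact permutation p = 0.485) became −0.09 without saline 49 and 0.02 with array weights. Per3 ranged from 10.10 through 70.43 to 140.0 in saline and from 1 through 30.36 to 56.60 in LNA29 livers, where livers 48 and 54 had no read. With 36 reads in all saline and 9 in all LNA29 livers, the depth-adjusted ratio of saline over LNA29 was 2.94. Its exact 95% interval of 1.39 to 6.93 covers counting error only. That interval pools the livers, leaves out the spread between them, and is no test. The groups overlapped, and the log2 fold change of −1.88 ± 0.94 (exact permutation p = 0.130) depended on the value given to livers without reads, since with a pseudocount of 10 it was −1.16. The mean of Per3, the member with 3 TGGTGCT matches, was 72.01 in saline and 28.02 in LNA29 livers, the latter on 0 to 3 reads a liver. Whether these matches bear on its values was not tested. Its promoter, at chr4:151044616-151044915 on the minus strand, held 2 copies of the D-box form TTATGTAA, in capitals, with first bases at positions −205 and −158 from the start. The D-box forms searched, TTATGTAA and TTACGTAA, were found in 1.06% of promoters and in no other member promoter. Further forms of the D-box were not searched.
Per3: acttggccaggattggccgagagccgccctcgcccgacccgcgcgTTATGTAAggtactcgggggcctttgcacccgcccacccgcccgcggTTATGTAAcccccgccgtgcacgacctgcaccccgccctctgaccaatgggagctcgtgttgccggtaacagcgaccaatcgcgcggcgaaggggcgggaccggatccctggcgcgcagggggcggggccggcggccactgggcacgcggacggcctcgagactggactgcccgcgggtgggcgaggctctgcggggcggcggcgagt

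Among the remaining member promoters, CACGTG (7.15% of promoters) was found in both RefSeq promoters of Tef and in 1 of Per1, and TGACGTCA (1.79%) in that of Hlf. RefSeq promoters were matched for 9 members, Per2 being the exception. None of these matches was tested against the values.

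**Figure D3:**
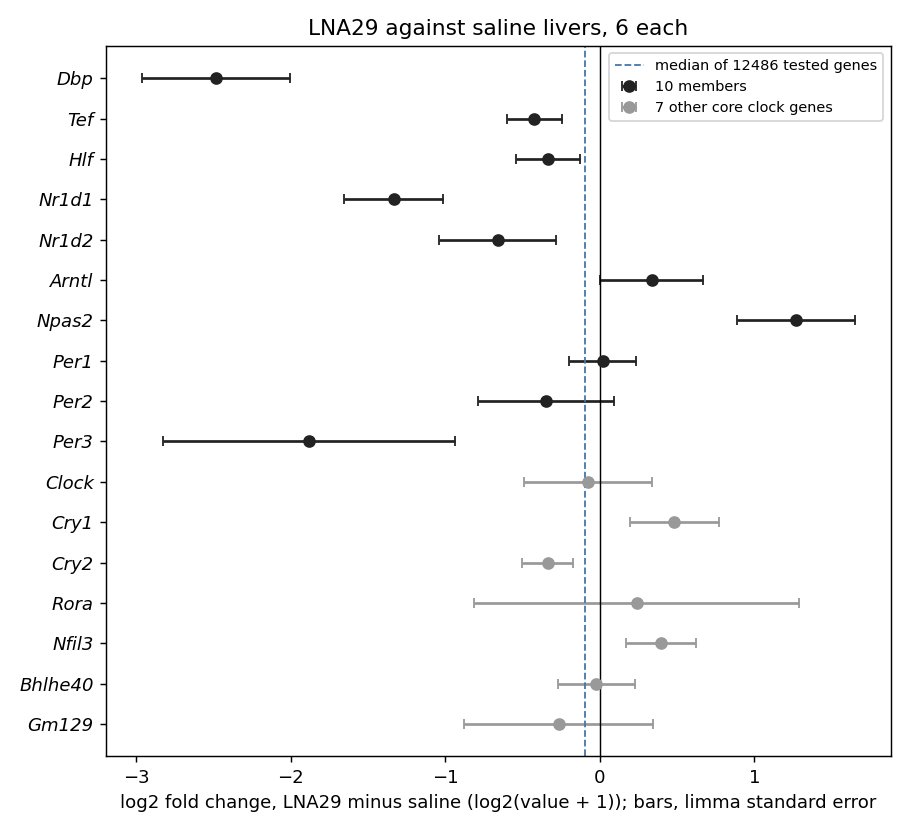
Log2 fold change of LNA29 minus saline livers (6 each) on the log2(value + 1) scale for the 10 members (black) and 7 other core clock genes (grey), with limma standard errors as bars; the dashed line is the median of 12486 tested genes, −0.09. Dbp (−2.48), Per3 (−1.88) and Nr1d1 (−1.33) lie farthest below 0 and Npas2 (1.27) farthest above.

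To compare levels between genes, values were divided by the length of the longest annotated transcript. Nr1d1 was then the most abundant member, at 1966 ± 622 per kilobase in saline and 840 ± 487 in LNA29 livers (SD, n = 6 each). In saline livers Per1 (467 ± 134) and Tef (459 ± 90.9) followed and were not separated by their spread, then Hlf (291 ± 92.1) and Dbp (103 ± 60.8). Below these, Arntl (44.9 ± 14.1), Nr1d2 (42.4 ± 27.4), Per2 (34.4 ± 25) and Npas2 (30.1 ± 14.5) had overlapping levels, and Per3 was lowest at 12 ± 8.2. In LNA29 livers Npas2 (73.2 ± 31.8) came right after Hlf, above Arntl (58.5 ± 21.7) by less than the spread, and Dbp (15.8 ± 5.42) stood next to last. These per-kilobase levels are approximate, as the transcript lengths come from GRCm38 and the values from mm9.

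**Figure D4:**
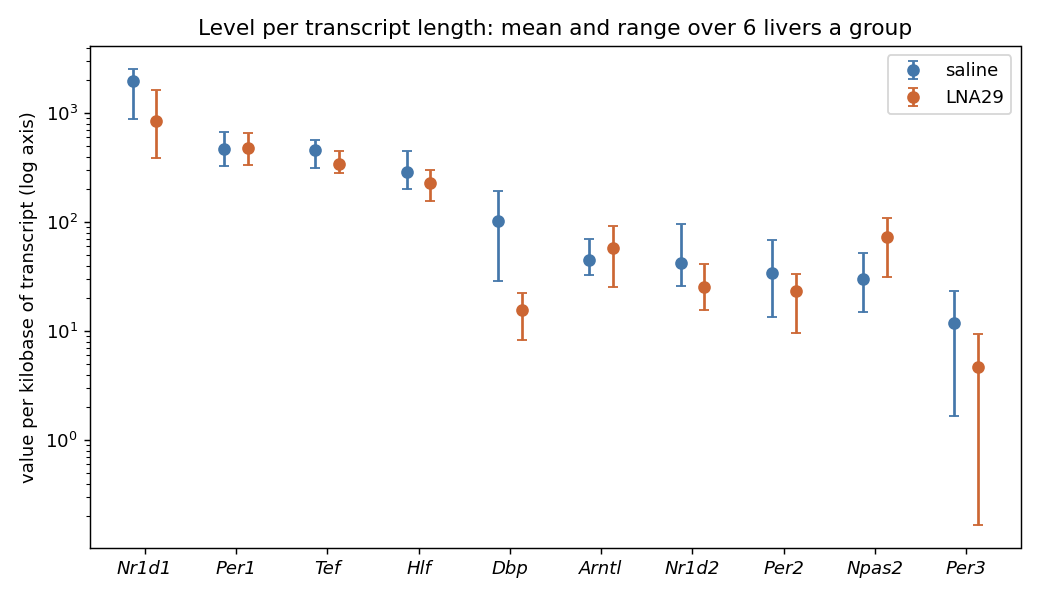
Value per kilobase of the longest transcript (logarithmic axis) for the 10 members, ordered by their saline mean; points are means of 6 livers and bars run from the lowest to the highest liver, saline in blue and LNA29 in orange. Nr1d1 is highest in both groups (1966 and 840), and the bars of Dbp do not overlap.

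Whether members moved together from liver to liver was examined in 6 pairs after the group means were removed, so that the treatment difference was not used (n = 12 livers). Arntl and Npas2, which bind as partners, gave Pearson's r = 0.41 (permutation p = 0.224, adjusted p = 0.671) and Spearman's rho = 0.46 (permutation p = 0.152, adjusted p = 0.908), and r = 0.56 without the pair of livers farthest from the median of Arntl. Nr1d1 and Dbp gave r = 0.40 (permutation p = 0.176, adjusted p = 0.671) and rho = 0.25 (permutation p = 0.448, adjusted p = 0.908), but r = −0.035 without saline 45 and LNA29 52, so that this relation rested on those livers. Npas2 and Nr1d1 gave r = −0.035 (permutation p = 0.918, adjusted p = 0.918) and rho = 0.13 (permutation p = 0.712, adjusted p = 0.908), and r = 0.06 without the same pair of livers. In the other 3 pairs, Arntl with Nr1d1, Nr1d1 with Nr1d2 and Per1 with Per2, r lay between −0.07 and 0.14, with permutation p values of 0.669 to 0.864 (adjusted p = 0.918), and rho between −0.07 and 0.13, with permutation p values of 0.693 to 0.908. Without the pair of livers farthest from the median, r in these pairs was between 0.01 and 0.26. Within the groups (n = 6 livers each) r was unlike for several pairs. It was 0.89 in saline and 0.11 in LNA29 livers for Arntl with Npas2, 0.74 and 0.04 for Nr1d1 with Dbp, and 0.61 and −0.47 for Npas2 with Nr1d1. Per1 with Per2 gave 0.49 and −0.37, Nr1d1 with Nr1d2 0.28 and 0.03, and Arntl with Nr1d1 0.20 and −0.19. These differences between groups were not tested. Dbp had only 1.12 to 2.30 estimated reads a liver in the LNA29 group, so its r there cannot show a relation or the lack of one. None of the 6 pooled pairs passed, and 12 livers with few reads for most members limit what could be seen.

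Core clock genes outside the list were examined next. Of 10 in the table, 8 were tested, while Rorb and Bhlhe41 were listed at 1 in every liver. Of the 8, 4 had a negative and 4 a positive log2 fold change, with a median of 0.11 and none at an unadjusted limma p under 0.05. Cry1, a repressor of Arntl and its partners, was 220.2 ± 56.63 in saline and 313.7 ± 102.6 in LNA29 livers (log2 fold change 0.48 ± 0.29, exact permutation p = 0.121). Leaving out 1 liver gave 0.32 (without saline 47, exact permutation p = 0.253) to 0.68 (without LNA29 52, the lowest of its group at 150.9, exact permutation p = 0.00649). The paralogue Cry2 was 2047 ± 380.9 and 1625 ± 309.8 (−0.34 ± 0.16, exact permutation p = 0.0671), and −0.40 to −0.25 with 1 liver left out (exact permutation p = 0.026 to 0.132). Nfil3, a bZIP repressor that competes for D-boxes, was 661.8 ± 166.3 and 873.3 ± 247.4 (0.39 ± 0.23, exact permutation p = 0.130), with 0.26 without saline 49 and 0.51 without LNA29 52 (exact permutation p = 0.260 and 0.0606). All of these overlapped between the groups.

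Clock, the other partner of Arntl, was 191.0 ± 160.1 in saline and 155.6 ± 53.04 in LNA29 livers (log2 fold change −0.08 ± 0.41), a difference whose sign turned when saline 49 or LNA29 52 was left out. Bhlhe40, an E-box repressor, was 1151 ± 453.9 and 1125 ± 445.8 (−0.02 ± 0.25) and also changed sign with the scaling. Rora, on 0 to 9 reads, was 28.10 ± 34.78 and 18.89 ± 12.04, so that its mean was lower in LNA29 livers while its log2 difference was positive (0.24 ± 1.05). Saline 45 and 47 and LNA29 52 had no Rora read and were listed at 1, and with a pseudocount of 10 the difference was −0.04. Gm129 (the older symbol of Ciart, a repressor of the clock) was 115.6 ± 60.85 and 96.58 ± 66.74 (−0.27 ± 0.61). None of these differences was larger than its error.

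Of 13 genes for proteins that act on clock proteins, 2 were lower at an unadjusted limma p under 0.05 and none was higher, where 5.97% and 1.95% of all tested genes were, with a median log2 fold change of −0.03. Fbxl21, a ubiquitin ligase component that acts on cryptochromes, had 0 to 6 reads a liver and a log2 fold change of −1.87 ± 0.87 (limma p = 0.0466, adjusted p = 0.621; exact permutation p = 0.0909). This call was lost in 12 of 19 alternatives, with values of −2.31 to −1.29 when 1 liver was left out, and the difference was −1.07 with a pseudocount of 10. Ncor1, a corepressor used by the REV-ERB receptors, was 1064 ± 526.0 and 678.4 ± 206.3 (−0.60 ± 0.28, limma p = 0.0478, adjusted p = 0.624; exact permutation p = 0.106), and −0.39 without saline 49, and its call was lost in 9 of 20 alternatives. Of 10 rhythmic output genes of liver, none passed in either direction, and their median was −0.08. The largest difference was in Wee1, a cell cycle kinase, at −2.06 ± 1.19 on 0 to 7 reads (exact permutation p = 0.152).

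Of 8 genes reported as targets of PAR bZIP factors, 6 had a negative and 2 a positive log2 fold change, with a median of −0.25, where 7671 of all tested genes were negative and 4815 positive. At an unadjusted limma p under 0.05, 2 of the 8 were lower and 1 was higher, where 5.97% and 1.95% of all tested genes were. Cyp2a5, a coumarin hydroxylase, was 19978 ± 9079 in saline and 8531 ± 4659 in LNA29 livers, with all 6 LNA29 livers below the saline median and overlapping ranges. Its log2 fold change was −1.22 ± 0.33 (limma p = 0.00164, adjusted p = 0.210; exact permutation p = 0.0195). Nr1i3, the receptor CAR that controls detoxification genes, ranged from 5958 to 8585 in saline and from 4181 to 7697 in LNA29 livers, at −0.45 ± 0.15 (limma p = 0.00748, adjusted p = 0.347; exact permutation p = 0.0152). Cyp2b10, a classical target of CAR, was on the other side at 1675 ± 948.9 and 3312 ± 1416, or 1.02 ± 0.40 (limma p = 0.0192, adjusted p = 0.487; exact permutation p = 0.0671). The Cyp2b10 call was lost without saline 49 (0.82, limma p = 0.0511, exact permutation p = 0.139) and without the filter on low values (limma p = 0.059), while without LNA29 48, the lowest of its group, the difference was 1.34 (exact permutation p = 0.0152). Reads of Cyp2a5 and Cyp2b10 can be shared with near-identical relatives of the cytochrome P450 family, so their values are uncertain. Por, Alas1, Cyp2a4, Cyp7a1 and Ppara gave log2 fold changes between −0.30 and 0.27, none of which passed.

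Glucocorticoid-responsive genes were included because the hormone itself is rhythmic and sets the liver clock. Of 8, 7 were positive and 1 negative with a median of 0.30, where 4815 of all tested genes were positive and 7671 negative. None of the 8 passed in either direction. The log2 fold changes of Klf9 (−0.004 ± 0.394), Pck1 (0.125 ± 0.250), Tsc22d3 (0.138 ± 0.201) and Mt2 (0.240 ± 0.374) were smaller than their errors. Those of Fkbp5, Sgk1, Tat and Zbtb16 were larger than theirs. The signs are a description, and a part of the hormone in them was not tested. The largest difference was in Tat, tyrosine aminotransferase, at 78003 ± 33565 in saline and 113738 ± 46140 in LNA29 livers (0.53 ± 0.32, exact permutation p = 0.193), and leaving out 1 liver gave 0.36 (without saline 43, exact permutation p = 0.368) to 0.77 (without LNA29 48, exact permutation p = 0.0368).

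**Figure D5:**
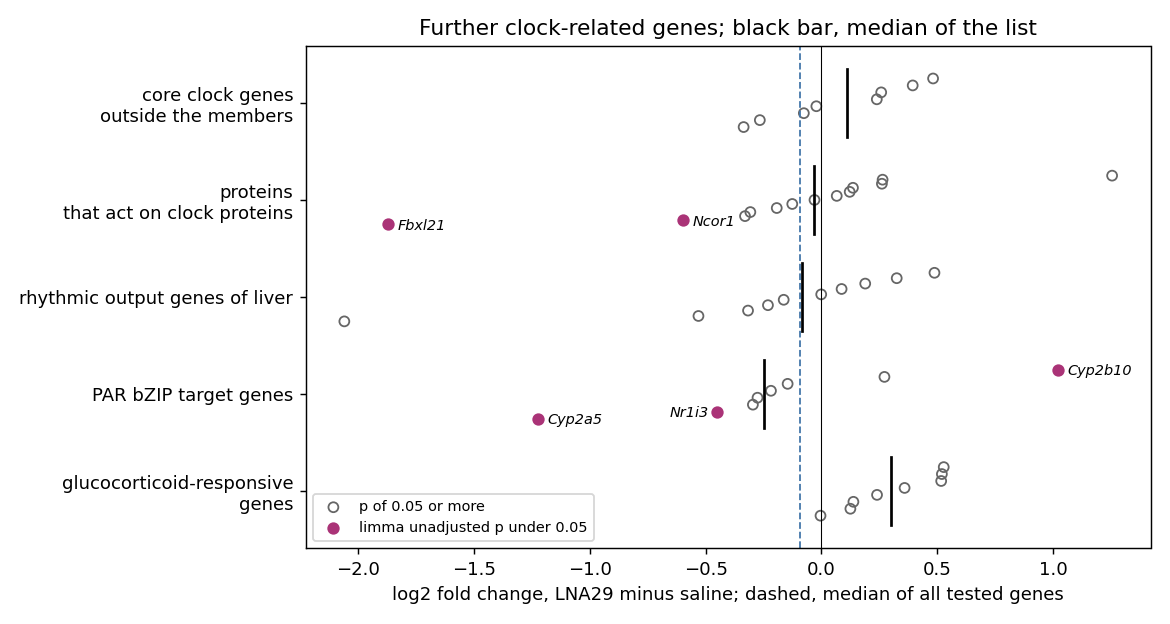
Log2 fold changes of LNA29 minus saline livers (6 each) for 5 lists of clock-related genes, 1 row a list and 1 circle a gene; filled circles had an unadjusted limma p under 0.05, black bars are list medians and the dashed line is the median of all tested genes. List medians lie between −0.25 (PAR bZIP target genes) and 0.30 (glucocorticoid-responsive genes).

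The 5 genes whose levels followed those of Dbp most closely over the 12 livers, of 8981 compared, were Slc9a3r1 (Pearson's r = 0.90), 9030619P08Rik (0.90), Pipox (0.88), Inf2 (0.87) and Shmt2 (0.87). These correlations describe pooled livers, so a difference between the groups by itself raises them. Slc9a3r1, a scaffold of membrane transporters, was 6733 ± 1240 in saline and 4239 ± 778.2 in LNA29 livers, and Pipox, a peroxisomal sarcosine oxidase, was 6434 ± 553.1 and 4600 ± 436.9. Shmt2, the mitochondrial serine hydroxymethyltransferase, was 6769 ± 827.9 and 5249 ± 341.9. Inf2, a formin that acts on actin, was 2051 ± 295.9 and 1475 ± 54.7, and 9030619P08Rik was 624.5 ± 240.7 and 242.3 ± 106.1. Slc9a3r1, Pipox and Inf2 did not overlap between the groups, which in the downward direction was so for 0.713% of all tested genes. They were picked for their likeness to Dbp, so their separation follows in part from that choice and is no support.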

How the data were processed

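Messenger RNA of 12 livers (6 saline, 6 LNA29) was sequenced by the authors from polyadenylated RNA as single reads of 100 bases, mapped with MapSplice2 to mm9 and quantified with RSEM, whose versions are not given in the sources used here. The deposited values are a signal: estimated reads per gene divided by the upper quartile of the library, times 1000, with 1 for a gene without reads. In each library, 92.2% to 93.9% of values above 1 were whole multiples, within 0.02 of a read, of the worth of 1 read, which gave estimated reads and depth. Intervals cover counting error only. The 7 columns of the authors' means, comparisons and unnamed values were not used.

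Groups followed the sample labels. Values were tested as log2(value + 1) with limma 3.58.1 (R 4.3.3, trend), without covariates, where the study used a one-tailed test of each gene. The 12486 genes averaging 10 or more entered, and p-values were adjusted over all of them (Benjamini-Hochberg). Single genes were also tested by a two-sided exact permutation test over 924 splits. Pairs used 100000 permutations of livers within groups. Scripts were tested on simulated data. The members and lists were chosen with earlier results of these data known. Every member was named, with every core clock gene but 1 that is not reported here, and of each further list the genes with an unadjusted p under 0.05 and the largest difference, and the 5 genes most correlated with Dbp among those with a mean of at least 100. Sphk2 and Thra were added after their overlap with members was seen. Annotation came from GENCODE M21 (GRCm38), another build than that of the values, and promoters and miRNAs from RefSeq (GRCm38.p6). Alternatives were other pseudocounts, filters, scalings and weights, and leaving out each liver.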

Additional observations from a re-analysis of the deposited data

Results flagged for a closer look

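In 3 of 36 groups of 6 livers examined (the members and tested core clock genes), 1 liver stood apart from the other 5 by a gap that was large relative to the group's range, where chance gives about 1.8. Nr1d2 in saline 43 was at 8.83 on the log2 scale (value 453.1, 29 reads), against 6.93 to 7.58 in the other saline livers. Rora in LNA29 52 was at 1 (no reads), against 3.88 to 5.27 in the other LNA29 livers, which had only 1 to 3 reads each. This gap depends on the value given to a liver without reads. Bhlhe40 in LNA29 44 was at 10.97 (value 2012, 161 reads), against 9.65 to 10.07.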

How the results depend on the processing

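The log2 fold changes of Nr1d1 (−1.56 to −1.15) and Npas2 (1.10 to 1.49) kept their direction and an unadjusted limma p under 0.05 in all 20 alternatives. Dbp, whose direction was fixed by its selection, ran from −2.80 to −2.17. Depth limits Dbp, Per3, Npas2, Arntl, Nr1d2 and Per2, which rest on few reads. Count tests by edgeR and DESeq2 were planned but not run, since reads could not be recovered from all libraries with the certainty they need. No paired analysis was possible because the groups share no replicate numbers.

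The number of genes with a limma adjusted p under 0.05 was 20, and became 5 without a filter, 10 with a common median and 58 with array weights. It ran from 1 to 29 when 1 liver was left out: 1 without saline 43, LNA29 50 or LNA29 54, 3 without saline 51, 7 without saline 53, 9 without LNA29 46, 10 without LNA29 52 and 11 without saline 47. The number of members lower at an unadjusted p under 0.05 was 2, and became 1 with a common median or TMM, and 1 to 3 with a liver left out: 1 without saline 43, saline 47, LNA29 44 or LNA29 54, each of which cost Tef. Without LNA29 46 or 50 Tef was lost too, but Per3 passed. Signs turned for Rora with a pseudocount of 10 (−0.043), for Bhlhe40 with a common median (0.023), TMM (0.038) and array weights (0.15), for Per2 (0.016), Clock (0.026) and Gm129 (0.13) with array weights, for Thra with TMM (0.009), and for r of Per1 with Per2 with a common median (−0.046). With 1 liver left out, Per1 ran from −0.086 to 0.135, Bhlhe40 from −0.21 to 0.13, Clock from −0.27 to 0.27, Rora from −0.29 to 0.82, Gm129 from −0.759 to 0.054 and Thra from −0.139 to 0.056. None of these differences had passed a test, and the cause was not tested.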
